A study of Bos indicus with 11 samples.

Results

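Transcripts of the mucin genes were examined in endometrial biopsies of Nelore (Bos indicus) cows. All cows were healthy and multiparous, had been synchronized and artificially inseminated (AI) at estrus, and were biopsied on day 6 after AI in the uterine horn on the side opposite to the corpus luteum. The 6 pregnant (P) cows and 5 non-pregnant (NP) cows were told apart only afterwards, by the diagnosis on day 30, so the comparison is between later outcomes of cows that had received the same treatment. Each library came from 1 cow and from the whole biopsy, with its epithelium, stroma, vessels and any muscle. Of 7 mucin genes listed (MUC1, MUC4, MUC5B, MUC13, MUC15, MUC16 and MUC20), 3 were found in the table by their exact symbol and had at least 1 read, among 18919 genes with a read. These were MUC1 (ENSBTAG00000017104), MUC13 (ENSBTAG00000010382) and MUC15 (ENSBTAG00000027126). The other 4 were not matched by symbol, 5976 of the 24616 genes listed have no symbol, and MUC4, MUC5B, MUC16 and MUC20 were not analysed here.

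Mucins are large glycoproteins whose serine- and threonine-rich stretches carry dense O-linked sugar chains. MUC1, MUC4, MUC13, MUC15, MUC16 and MUC20 are held in the apical membrane of epithelial cells, whereas MUC5B is secreted and forms gels. In the uterus, membrane mucins form part of the glycocalyx of the luminal epithelium, the surface that an embryo meets first, and MUC1 in particular is known as an anti-adhesive molecule that is lost from, or shed by, receptive epithelium in several species. The sugars are started by GalNAc transferases, extended and capped by further transferases, and the extracellular parts can be released by membrane proteases, known as sheddases.

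Between 9290949 and 13508711 reads fell on genes in P cows and between 9783673 and 13569085 in NP cows. Cow P617 stood apart from the other libraries, being the highest of the 11 cows in 26.0% and the lowest in 27.8% of the 15081 genes tested. Nothing in the labels says that the libraries were made in batches.

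MUC1 was detected in every cow, with no separation of the groups. In P cows its normalized count was 331 in cow P617, 200.2 in P904, 185 in P1541, 915 in P1631, 501 in P1753 and 225 in P2396. In NP cows it was 323 in cow NP238, 333 in NP638, 209.7 in NP856, 447 in NP2541 and 141 in NP2810. The normalized count is the number of reads on a gene divided by a size factor for the cow, and the values rest on 138 to 801 reads per cow. One P cow, P1631, lay well above all others, and the remaining P cows, at 185 to 501, overlapped the NP cows at 141 to 447.

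P cows averaged 393 ± 282 normalized counts of MUC1 (SD, n = 6), and NP cows averaged 291 ± 119 (SD, n = 5). On the log2(normalized count + 1) scale, the difference of NP minus P was -0.29 (standard error 0.43, 95% confidence interval -1.23 to 0.66, adjusted p = 0.894 in limma). The interval allows MUC1 to be lower or higher in NP cows. Without cow P1631 the difference was 0.0072.

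MUC13 differed most among cows. Its normalized count was 164 in cow P617, 7.66 in P904, 23.2 in P1541, 85.7 in P1631, 15.1 in P1753 and 2.63 in P2396. In the NP group it was 6.07 in cow NP238, 52.8 in NP638, 29.0 in NP856, 50.2 in NP2541 and 7.14 in NP2810. The highest and the lowest value both belonged to P cows, and the NP cows lay between them.

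Cow P617 had 145 reads on MUC13 and cow P2396 had 3, a 62.4-fold ratio of normalized counts with an exact binomial 95% interval of 20.9 to 306 that covers counting error only. The SD of MUC13 over the 11 cows was 1.71 on the log2 scale, larger than in 96.6% of the genes tested, while that of MUC1 was 0.77, larger than in 74.9%. The median gene tested had an SD of 0.42. Genes with few reads vary more by counting alone, which bears on MUC13 more than on MUC1.

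P cows averaged 49.7 ± 63.5 normalized counts of MUC13 (SD, n = 6), and NP cows averaged 29.0 ± 22.5 (SD, n = 5). The difference of NP minus P on the log2 scale was -0.13 (standard error 0.98, 95% confidence interval -2.27 to 2.02, adjusted p = 0.981 in limma). It was -0.77 in DESeq2 and -0.74 in edgeR, which fit counts rather than log2 values. The sign depended on single cows, and without cow P617 the difference was 0.43.

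MUC15 was at the limit of detection. NP cows NP238, NP2541 and NP2810 had 3 reads each, NP856 had 2 and NP638 had 1. Among P cows only P904 had reads, also 3, and the other 5 had 0. A read was thus seen in 5 of 5 NP cows and in 1 of 6 P cows, on 15 reads in all. Because no cow had more than 3 reads, no fold is given, and the gene lay under the filter of a mean of 5 normalized counts. In a fit of all 18919 genes without that filter, MUC15 had an unadjusted p of 0.00413 and an adjusted p of 0.377 in limma. In that fit 7.12% of all genes had an unadjusted p under 0.05 and 0 genes passed after adjustment.

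**Figure D1:**
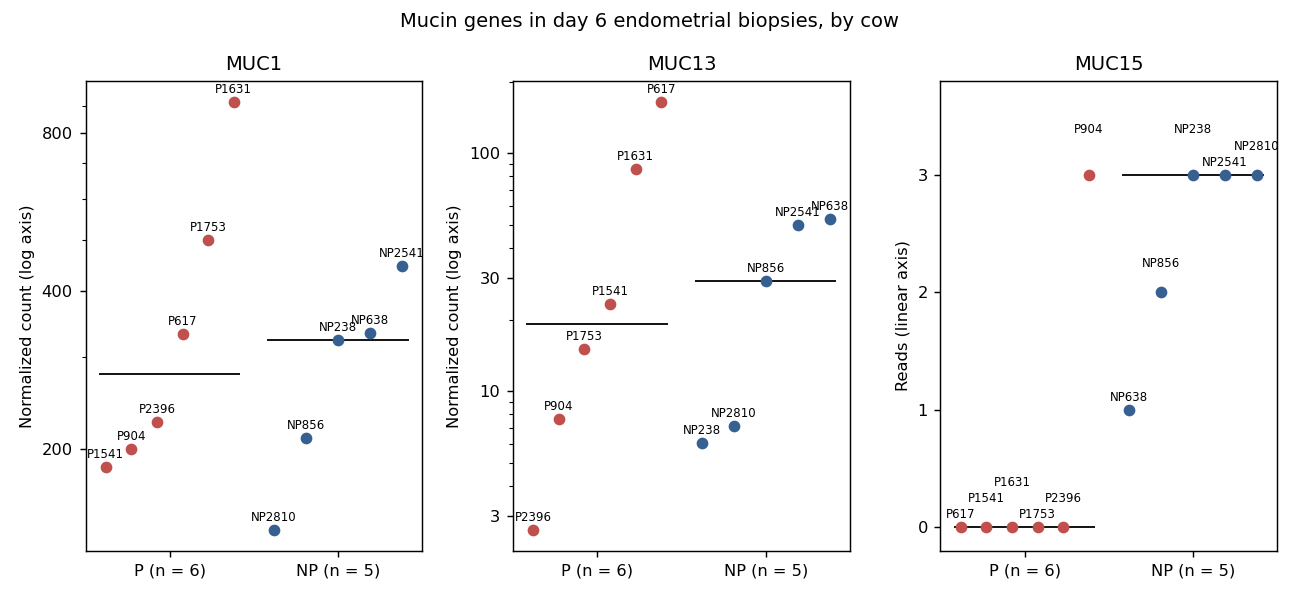
Normalized counts of MUC1 and MUC13 (log axes) and reads of MUC15 (linear axis) in each of the 6 P and 5 NP cows, with a line at the median of each group. MUC1 and MUC13 overlap between the groups, with cow P1631 highest for MUC1 and cow P617 highest for MUC13, and no cow has more than 3 reads on MUC15.

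Of the 3 mucins, MUC1 and MUC13 could therefore be tested, and 0 of these 2 had an adjusted p under 0.1 in limma, where 0% of the 15081 genes tested did. Neither had an unadjusted p under 0.05, against 7.84% of all genes tested. Their groups overlapped, as in all but 1.09% of genes. On whole reads recovered from the normalized counts, the adjusted p of MUC1 and MUC13 was 0.850 and 0.883 with DESeq2, which called 1.33% of genes (1.13% with more in NP and 0.206% with more in P cows), and 0.867 and 0.906 with the quasi-likelihood test of edgeR, which called 0% and gave 7.63% an unadjusted p under 0.05.

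Since both mucins are known as epithelial genes, they were set beside 18 epithelial markers, among them EPCAM, an adhesion molecule of epithelial cells, CDH1, which encodes E-cadherin, and the keratins KRT8, KRT18 and KRT19. All 18 were detected in every cow. Their score, the mean log2(normalized count + 1) over the genes, was 9.24 to 10.72 in 10 cows, with the highest in P1631, and 7.05 in cow P617. In bulk tissue, fewer cells of a type and less RNA per cell cannot be told apart. P cows had a mean score of 9.59 ± 1.33 (SD, n = 6), and NP cows one of 9.93 ± 0.21 (SD, n = 5) (two-sided exact permutation test, p = 0.788, adjusted p = 0.952 over 9 marker lists).

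Cow P617 was the lowest of the 11 cows for 18 of the 18 epithelial markers. The ratio of its level to the median of the other 10 cows ranged from 0.0125 for GRHL2 to 0.562 for KRT19, with a median of 0.114. EPCAM, for instance, had 269 normalized counts in cow P617 and a median of 3425 in the others. Its MUC1 level was 1.21 times and its MUC13 level 8.55 times the median of the other cows.

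Per 1000 normalized counts of EPCAM, MUC1 had 1231 in cow P617 and between 39.8 and 194 in the other 10 cows. For MUC13 the same ratio was 609 in cow P617 and between 0.672 and 22.1 in the others. With KRT8 as the reference, MUC1 had 816 against 60.9 to 262, and MUC13 had 404 against 0.958 to 31.3. The size of these ratios depends on the reference. In cow P617, EPCAM and KRT8 were at 0.0785 and 0.187 of the median of the others, but KRT19 and SPINT2 at 0.562 and 0.544. MUC1 and KRT19 were at 331 and 569 in P617, and at 447 and 744 in NP2541. With KRT19 as the reference, P617 was thus not the highest cow for MUC1. A single cow thus combined the lowest epithelial markers with a MUC1 level inside, and a MUC13 level above, the range of the other cows. This was not particular to the mucins. AGR2 (1130 normalized counts in P617), GCNT3 (302), CHST4 (81.3) and CLCA2 (22.6), from lists described below, were each higher only in cow P1631. P617 was the lowest cow for 2 of 8 goblet cell and gel-mucin genes and for 8 of 22 genes that extend, cap or sulfate O-glycans. The share over all genes tested was 27.8%. The 5 uterine gland markers tested were split in this cow. P617 was the lowest of the 11 cows for GRP (121 normalized counts), FOXA2 (26.0) and SERPINA14 (0), the highest for CXCL17 (225), and inside the range of the others for SPP1 (547). Cow P617 is named as pregnant in its sample labels, which were followed here, while the supplement of the paper names it as non-pregnant. The main text of the paper gives 6 P and 5 NP cows, the group sizes of the labels.

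**Figure D2:**
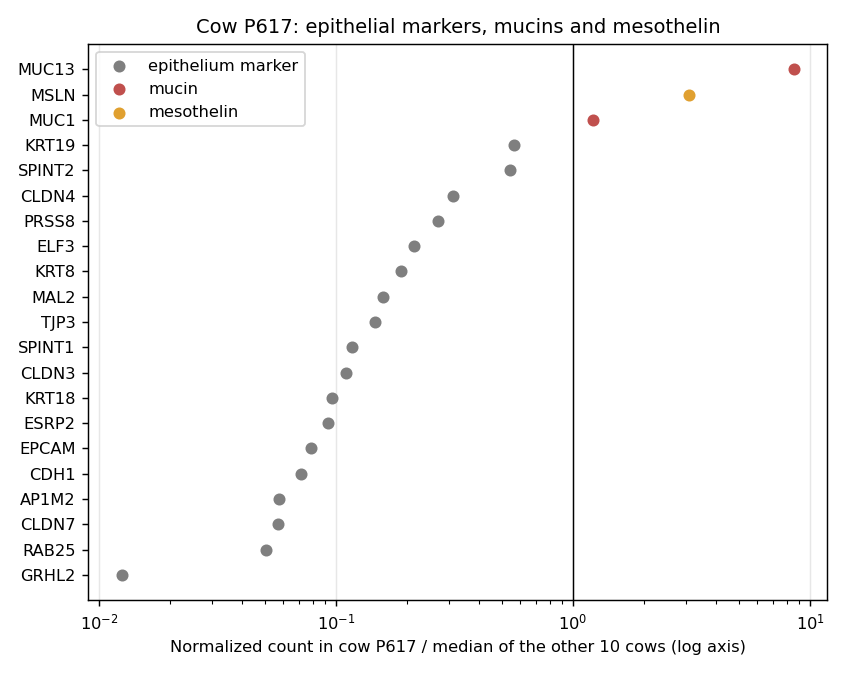
Normalized count in cow P617 divided by the median of the other 10 cows (log axis) for the 18 epithelial markers (grey), the mucins MUC1 and MUC13 (red) and mesothelin, MSLN (yellow). The markers lie between 0.0125 and 0.562, whereas MUC1 lies at 1.21, MSLN at 3.07 and MUC13 at 8.55.

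Over the 11 cows neither relation of a mucin with the epithelium score passed the test. For MUC1 Pearson's r was 0.16 (permutation p = 0.645, adjusted p = 0.662) and Spearman's rho 0.31 (permutation p = 0.357, adjusted p = 0.433). Without P617 r was 0.55, and without P617 and P1541, the 2 cows farthest from the median score, it was 0.49. For MUC13 r was -0.53 (permutation p = 0.0820, adjusted p = 0.159) and rho -0.44 (permutation p = 0.184, adjusted p = 0.307). Without cow P617 alone r was -0.05, so the linear relation rested on that cow, and without both cows r was 0.01 and rho -0.23.

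With the score of 7 smooth muscle genes, such as DES, which encodes desmin, and MYH11, the smooth muscle myosin heavy chain, r was 0.15 for MUC1 (permutation p = 0.662, adjusted p = 0.662; rho 0.26, permutation p = 0.433, adjusted p = 0.433) and 0.53 for MUC13 (permutation p = 0.0952, adjusted p = 0.159; rho 0.51, permutation p = 0.114, adjusted p = 0.285). Without cow P617 these r values were 0.14 and 0.32, and without P617 and P1541 they were 0.43 and 0.34. MUC1 and MUC13 correlated with each other at r = 0.54 (permutation p = 0.0882, adjusted p = 0.159; rho 0.52, permutation p = 0.107, adjusted p = 0.285), at r = 0.61 without cow P617, and at r = 0.33 without cows P1631 and NP2810. The adjustment is over these 5 relations, and 0 of them passed it.

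**Figure D3:**
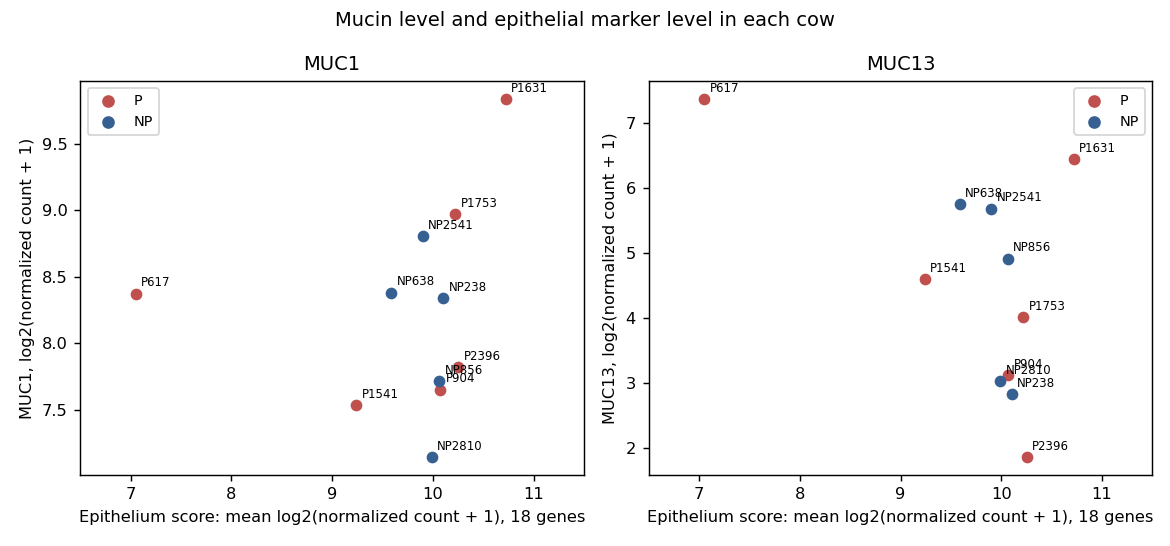
Level of MUC1 (left) and MUC13 (right) against the epithelium score in each cow, both as log2(normalized count + 1), with P cows in red and NP cows in blue. Cow P617 stands apart at a score of 7.05, with a MUC1 level inside the range of the other cows and the highest MUC13 level.

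P cows had a mean smooth muscle score of 13.62 ± 1.19 (SD, n = 6), and NP cows one of 12.31 ± 1.20 (SD, n = 5) (two-sided exact permutation test, p = 0.106, adjusted p = 0.191). The highest scores were those of P617 (15.26) and P1541 (14.82). With this score as a covariate, the log2 difference of MUC13 moved from -0.13 to 1.06 (adjusted p = 0.984 in limma) and that of MUC1 from -0.29 to -0.24. With the epithelium score as a covariate they were 0.19 and -0.34. Neither gene had an adjusted p under 0.773 in any of the 19 alternative fits, and the sign of MUC13 differed among the fits.

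**Figure D4:**
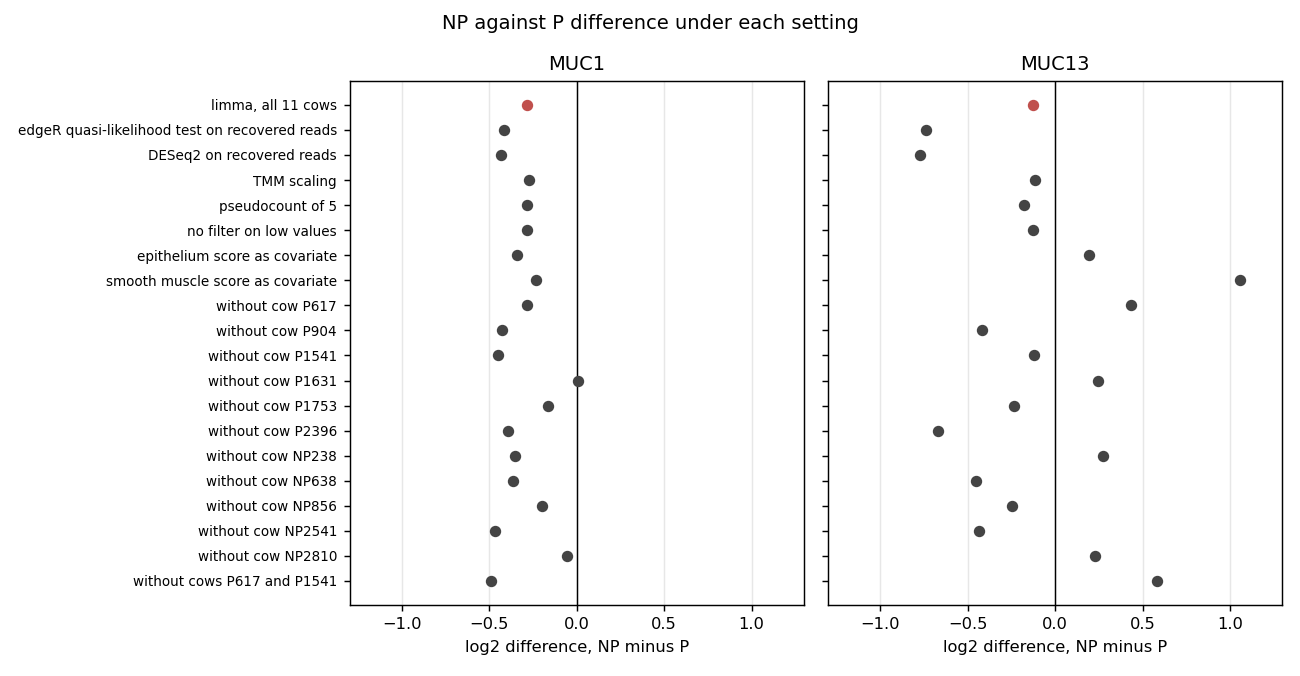
Log2 difference (NP minus P) of MUC1 and MUC13 in limma with all 11 cows (red) and in 19 alternative fits (grey). MUC1 lies between -0.49 and 0.0072, and MUC13 between -0.77 and 1.06, on both sides of 0.

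The genes whose levels followed each mucin most closely over the 11 cows were taken from 13827 tested genes with a symbol, as a description only. For MUC1 these were SSH3, a phosphatase of the actin regulator cofilin (r = 0.90), LAMB3, the beta chain of the epithelial laminin of basement membranes (r = 0.89), and NUMA1, a protein of the mitotic spindle pole (r = 0.87). LAMB3 was highest in cow P1631 (299 normalized counts) like MUC1, and was between 56.1 and 196 in the other cows. Without cow P617 the r values were 0.92, 0.92 and 0.87. For MUC13 they were ATP12A, which encodes a non-gastric proton and potassium pump (r = 0.96), MIR24-1, a microRNA gene (r = 0.95), and LOC100847724 (r = 0.94), with 0.96, 0.96 and 0.91 without cow P617. ATP12A had 19.2 normalized counts in cow P617 and 24.0 in P1631, the 2 cows with the highest MUC13 levels, and 0 to 11.2 in the others. These 3 genes had at most 79.1 normalized counts in a cow, and all values of a cow share 1 library.

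Of 23 listed GalNAc transferases, the enzymes that start mucin-type O-glycans, 17 were found and 12 tested, with a median log2 difference of 0.15 beside 0.0018 over all genes tested. In limma 0 passed the threshold, and 3 had an unadjusted p under 0.05, all higher in NP cows (5.49% of all genes were so). DESeq2 called 1 of the 12, and 1.33% of all genes tested. GALNTL1, an enzyme of the GalNAc transferase family, averaged 393 ± 158 normalized counts over the P cows (SD, n = 6) and 960 ± 261 over the NP cows (SD, n = 5). Its log2 difference was 1.35 ± 0.30 (standard error), with an adjusted p of 0.264 in limma, 0.0597 in limma without cow P904 and 0.0150 in DESeq2. The P cows ranged from 196 to 608 and the NP cows from 570 to 1227, so the groups met only at their edges. GALNT10 had a log2 difference of 0.99 (adjusted p = 0.369 in limma), and GALNT14, with a mean of 5.95 normalized counts over all cows, one of 1.38 (adjusted p = 0.608 in limma). GALNT14 averaged 3.20 over the P cows and 9.25 over the NP cows, on 0 to 20 reads per cow. It passed the filter of a mean of 5, and so entered the count of 3, only through the NP cows.

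Among the enzymes that extend, cap or sulfate the sugars, 22 of 26 listed were tested, and at an unadjusted p under 0.05 NP cows had more of 4 and P cows more of 2 (5.49% and 2.35% of all genes), with 0 past the threshold in limma. The median log2 difference was 0.13. ST3GAL4, a sialyltransferase, did not overlap between the groups, a pattern seen in 1 of these 22 genes and in 1.09% of all genes. P cows averaged 658 ± 121 normalized counts (SD, n = 6) and reached 859 at most, and NP cows averaged 913 ± 35.8 (SD, n = 5) and had at least 875. The log2 difference was 0.49 (adjusted p = 0.303 in limma and 0.0562 in DESeq2).

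Sulfotransferases differed in sign. CHST1 had a log2 difference of 0.97 (adjusted p = 0.434 in limma) and CHST4 one of -1.50 (adjusted p = 0.503 in limma). The other genes with an unadjusted p under 0.05, named after their values were seen, were the branching enzymes GCNT4, with a log2 difference of 0.96 (adjusted p = 0.527 in limma), and GCNT3, with -1.29 (adjusted p = 0.536), and the sialyltransferase ST3GAL2, with 0.50 (adjusted p = 0.514).

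Of the proteins that bind cell surface mucins, 18 of 21 listed were tested, with a median log2 difference of 0.21. In limma 0 passed the threshold, while at an unadjusted p under 0.05 NP cows had more of 3 and P cows more of 1, beside 5.49% and 2.35% of all genes. ICAM1, an adhesion molecule that can bind MUC1, had the smallest p of the list. Its normalized counts were 115, 203, 117, 152, 169 and 162 in P cows P617, P904, P1541, P1631, P1753 and P2396. They were 351, 296, 331, 356 and 383 in NP cows NP238, NP638, NP856, NP2541 and NP2810. The lowest NP cow was thus above the highest P cow, a pattern seen in 1 of these 18 genes and in 1.09% of all genes. DESeq2 called 2 of the 18, and 1.33% of all genes tested. The log2 difference was 1.18 ± 0.17 (standard error), with an adjusted p of 0.147 in limma and 8.22e-08 in DESeq2. In limma it passed the threshold with the epithelium score as a covariate (adjusted p = 0.0329), without cow P904 (adjusted p = 0.0179) and without cows P617 and P1541 (adjusted p = 0.0862). ICAM1 is made by endothelial and immune cells as well as by epithelium, and the scores of those cells are given with the mucin-like genes. The other 2 that were higher in NP cows were the galectin LGALS9 (log2 difference 0.73, adjusted p = 0.467 in limma) and SIGLEC1, a sialic acid-binding receptor of macrophages named after its values were seen (1.43, adjusted p = 0.477 in limma).

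MSLN encodes mesothelin, a cell surface protein that binds MUC16. It had 1462 normalized counts in cow P617, 344 in P904, 783 in P1541, 2405 in P1631, 739 in P1753 and 510.2 in P2396. In NP cows it had 471 in NP238, 344 in NP638, 479.6 in NP856, 209 in NP2541 and 270.1 in NP2810. Most P cows lay above the NP cows, and P904 lay within their range. The log2 difference was -1.32 ± 0.45 (standard error), with an adjusted p of 0.459 in limma and 0.0791 in DESeq2.

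MSLN is also a marker of mesothelium, the lining of the outer surface of the uterus. The score of the 2 mesothelial markers tested, UPK3B and LRRN4, averaged 4.83 ± 0.89 over the P cows (SD, n = 6) and 3.34 ± 1.02 over the NP cows (SD, n = 5) (two-sided exact permutation test, p = 0.0108, adjusted p = 0.0584). Their summed normalized counts were 54.2 to 552 in P cows and 9.10 to 284 in NP cows. LRRN4 was at 0 in P cows P1631 and P1753 and in NP cows NP238, NP856 and NP2810. Its mean was 19.3 over the P cows, with a median of 1.35 and a maximum of 101, and 0.968 over the NP cows. LRRN4 thus passed the filter of a mean of 5 only through the P cows, and the p of the score is no independent test. UPK3B alone had a log2 difference of -1.47 (unadjusted p = 0.108 in limma). The part of mesothelial cells in the level of MSLN was not tested.

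Sialomucins and other mucin-like genes made up a list of 20, of which 6 were found by symbol and 5 tested. In limma 0 passed the threshold, 3 had an unadjusted p under 0.05, all higher in NP cows (5.49% of all genes), and the median log2 difference was 0.65. These were SELPLG, the P-selectin ligand of leukocytes, at 0.85 (adjusted p = 0.556 in limma), CD34, a sialomucin of vessels and progenitor cells, at 0.69 (adjusted p = 0.563), and EMCN, endomucin of venous and capillary endothelium, at 0.65 (adjusted p = 0.589). CD34 averaged 651 ± 309 normalized counts over the P cows (SD, n = 6) and 1006 ± 243 over the NP cows (SD, n = 5), and without cow P904 its adjusted p in limma was 0.0968. MUC19, a gel-forming mucin, had 0 to 2.26 normalized counts and was not tested.

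The endothelium score, of 7 genes such as PECAM1 and CDH5, averaged 9.50 ± 0.52 over the P cows (SD, n = 6) and 10.34 ± 0.33 over the NP cows (SD, n = 5) (two-sided exact permutation test, p = 0.0130, adjusted p = 0.0584), with summed normalized counts of 3679 to 11692 and 7285 to 13073. The immune cell score was 5.83 ± 0.44 and 6.45 ± 0.40 (two-sided exact permutation test, p = 0.0411, adjusted p = 0.123), with sums of 426 to 956 and 746 to 1492. Their part in the levels of EMCN, CD34, SELPLG, SIGLEC1 and ICAM1 was not tested. Stroma scored 13.20 ± 0.57 and 13.78 ± 0.12 (exact permutation p = 0.0693, adjusted p = 0.156), uterine gland 8.30 ± 1.36 and 8.40 ± 0.20 (exact permutation p = 0.952, adjusted p = 0.952), ciliated cells 7.0 ± 1.95 and 7.64 ± 0.64 (exact permutation p = 0.515, adjusted p = 0.773), and stratified squamous epithelium 3.62 ± 0.87 and 3.53 ± 0.69 (exact permutation p = 0.857, adjusted p = 0.952).

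All 7 listed sheddases and neuraminidases were tested, and 7 of 7 had a log2 difference above 0, as did 50.2% of all genes, with a median of 0.24 and 0 past the threshold in limma. Cow P617 was the lowest of the 11 cows for 4 of these 7 genes, as it was for 27.8% of all genes tested. MMP14, a membrane matrix metalloproteinase that can release MUC1, averaged 2360 ± 783 normalized counts over the P cows (SD, n = 6) and 3575 ± 429 over the NP cows (SD, n = 5), with a log2 difference of 0.66 (adjusted p = 0.446 in limma). ADAM17, another MUC1 sheddase, had a log2 difference of 0.24 (adjusted p = 0.764 in limma), and the sialidase NEU3 one of 0.23 (adjusted p = 0.832 in limma). MMP14, ADAM17 and NEU3 stayed above 0 in all 20 fits, with or without cow P617. The part of that cow in the signs of the other genes was not tested.

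Genes of goblet cells and of gel-mucin folding had a median log2 difference of -0.41 over 8 tested of 14 listed. In limma 0 of them had an unadjusted p under 0.05, against 7.84% of all genes tested. The log2 difference was above 0 for 3 of them, SPDEF (0.75), AGR3 (0.64) and KLK12 (0.22), and below 0 for 5. SPDEF had 45.2 normalized counts in cow P617, beside a median of 2803 over the P cows. Its log2 difference was 0.05 in DESeq2 and 0.06 in edgeR. AGR2, a disulfide isomerase needed to fold gel-forming mucins, had a log2 difference of -1.01 (adjusted p = 0.641 in limma), the trefoil peptide TFF3 one of -0.50 (adjusted p = 0.799) and the chloride channel accessory gene CLCA2 one of -1.15 (adjusted p = 0.764). The unadjusted p of AGR2 was 0.0523 in limma, 0.00888 in DESeq2 (adjusted p = 0.262) and 0.0245 in edgeR (adjusted p = 0.591). AGR2 had 1899 normalized counts and TFF3 had 3279 in cow P1631, the cow with the highest MUC1 level, against at most 1130 and 1256 in any other cow. Cow P1631 was the highest of the 11 cows for 5 of these 8 genes, as it was for 9.75% of all genes tested. It also had the highest epithelium score of the 11 cows, 10.72. The part of epithelial content in these levels was not tested.

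**Figure D5:**
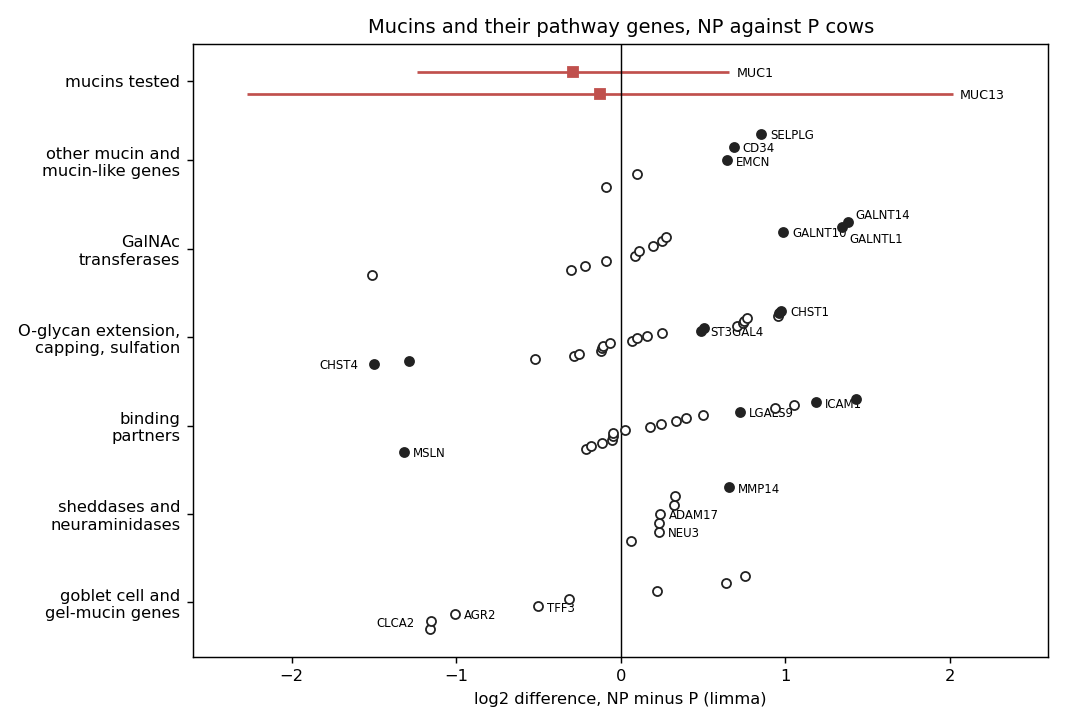
Log2 differences (NP minus P, limma) of MUC1 and MUC13 with 95% confidence intervals (red squares and bars) and of each tested gene of 6 pathway lists (circles, filled at an unadjusted p under 0.05, named genes written beside them). Both mucin intervals cross 0, the 7 sheddases and neuraminidases lie to the right of 0, and 0 of the genes drawn passed the adjusted threshold.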

How the data were processed

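RNA of 1 endometrial biopsy per cow was sequenced for 6 P and 5 NP cows. Per the labels and the methods of the study, the authors filtered reads with Seqyclean, aligned them with Bowtie2 2.1.0 to the masked UMD3.1 assembly, counted them per gene with HTSeq 0.5.4p2 and deposited normalized counts, a signal in which each gene count is divided by a DESeq2 1.12.1 size factor of the cow. The gene annotation and the use of strand in counting are not given in the sources used here, so reads of overlapping genes cannot be told apart, and reads in repeats of a mucin may have been lost to the masking, which was not tested. Cow P617 was kept as P, as its labels say and as the group sizes in the paper's main text require, although the paper's supplement names it as NP.

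All values were whole multiples of the value of 1 read, within a tolerance of 0.01 reads, so whole reads were recovered. The main test was limma 3.58.1 in R 4.3.3 on log2(normalized count + 1) for genes with a mean of at least 5, with Benjamini-Hochberg adjustment over 15081 genes and a threshold of 0.1. Such fold changes understate those of low genes. Differences are NP minus P. Alternatives were edgeR 4.0.16, DESeq2 1.42.0, TMM scaling, a pseudocount of 5, no filter, the epithelium or smooth muscle score as a covariate, and the omission of cows. Marker scores were compared by exact permutation over 462 splits of the cows, whose smallest possible p is 0.00216, and correlations by 100000 resamples. The scripts were tested on simulated data. The members and the 9 marker and 6 pathway lists were chosen with earlier results of these data known. Named genes were, from each pathway list, those whose groups do not overlap and the 3 with the smallest unadjusted p, and, for each mucin tested, the 3 genes with a symbol that correlated best with it. The ratios to EPCAM and KRT8, the comparison of cow P617 with the median, the relation of MUC13 with MUC1 and the counts of highest cows were added after the data were seen, and are descriptions, apart from the permutation test of that relation. Each cow is a separate animal. Intervals cover counting error only where they are binomial.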

Additional observations from a re-analysis of the deposited data

Results flagged for a closer look

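Within each group, the highest and the lowest cow were compared with the range of the group by Dixon's criterion in 60 groups of values, of which 5 had a cow beyond the 95% critical value, where chance gives about 1 in 20. MUC15 in cow P904 was at 1.95 on the log2(normalized count + 1) scale while the other P cows were at 0, a difference of 3 reads. With all other P cows at 0, any read in P904 would have raised this flag, so it says nothing of the size. The uterine gland score of cow P617 was 5.72, below the other P cows by 0.674 of the range. CD34 was 10.30 in cow P904, above the other P cows, and 9.22 in cow NP238, below the other NP cows, with gaps of 0.645 and 0.726 of the range. EMCN was 10.89 in cow P904, with a gap of 0.649.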

How the results depend on the processing

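In limma 0 genes were called with all 11 cows, 201 with DESeq2, 81 with the epithelium score as a covariate, 17 without cows P617 and P1541, and 0 to 171 when 1 cow was left out, with the 171 found without cow P904. The other alternatives called 0. The cause was not tested. MUC1 was called in 0 of 19 alternatives (adjusted p 0.773 to 0.995), with log2 differences of -0.47 to 0.0072 when 1 cow was left out, above 0 only without cow P1631. MUC13 was called in 0 of 19 (adjusted p 0.804 to 0.994), and its difference turned from -0.13 to 0.19 with the epithelium score and 1.06 with the smooth muscle score as a covariate, and to 0.58 without cows P617 and P1541. It was -0.67 to 0.43 when 1 cow was left out, and above 0 without P617 (0.43), P1631 (0.25), NP238 (0.28) or NP2810 (0.23). Without cows P617 and P1541 the differences of the marker scores were -0.39 for epithelium, -0.56 for uterine gland and -0.40 for ciliated cells, all reversed, 0.90 for stroma (adjusted p = 0.0714 by exact permutation), 0.63 for endothelium and -1.13 for mesothelium (both adjusted p = 0.107 by exact permutation), and -0.60 for smooth muscle in place of -1.31 (adjusted p = 0.490 by exact permutation). When 1 cow was left out they were -0.17 to 0.56 for epithelium, -0.42 to 0.32 for uterine gland, 0.06 to 1.10 for ciliated cells, 0.45 to 0.71 for stroma, -1.76 to -0.98 for smooth muscle, 0.68 to 1.00 for endothelium, 0.46 to 0.77 for immune cells, -1.71 to -1.07 for mesothelium and -0.35 to 0.14 for stratified squamous epithelium. Endothelium and mesothelium, each with an adjusted p of 0.0584 by exact permutation over all cows, were at 0.107 to 0.171 in 6 of these 11 omissions each (P1541, P1631, P2396, NP2541 and NP2810 for both, NP856 for endothelium and NP238 for mesothelium). Stroma without P617, immune cells without P904 or NP638 and smooth muscle without NP638 came under 0.1. With fewer cows exact permutation has a larger smallest p. The 18 named pathway genes kept their sign in every fit run. Depth limited MUC15, with at most 3 reads in a cow, and MUC13, with 3 to 145.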
